A study of Homo sapiens with 12 samples.

Results

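Pargyline is an irreversible inhibitor of the monoamine oxidases, flavoenzymes of the outer mitochondrial membrane that oxidise amines, and at high concentration it also acts on the related flavoenzyme LSD1 (KDM1A), a histone demethylase that works in corepressor complexes. The comparison described here set 3 arrays of MDA-MB-231 cells given 2.5 mM pargyline for 24 h against 3 arrays of the same cells given the vehicle, DMSO, for 24 h. These 6 arrays, of 12 in the series, were chosen by their labelled treatment alone. The other arrays, 3 per group, came from cells given 5 uM SAHA (vorinostat, a histone deacetylase inhibitor) together with 2.5 mM pargyline, and from cells given 5 uM SAHA alone, also for 24 h. Every group was labelled as 3 biological replicates; the labels do not say whether these were separate cultures or passages, so the p-values measure the spread between these samples. No array tested a second dose, an earlier time or another monoamine oxidase or LSD1 inhibitor.

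MDA-MB-231 is an established human breast cancer line without hormone receptors and with mesenchymal features. Vimentin (VIM) averaged 14.80 ± 0.09 in pargyline-treated cells and 14.90 ± 0.01 in DMSO-treated cells (log2 value, SD, n = 3 each), while the oestrogen receptor ESR1 averaged 3.12 and 3.11 and E-cadherin (CDH1) 2.09 and 2.11. The 7 leukocyte markers measured averaged no more than 2.08 on any of the 6 arrays. Not every epithelial marker was dim: GATA3 averaged 9.42 in pargyline-treated and 9.23 in DMSO-treated cells, and EPCAM 7.10 and 8.42. Dim here means a mean log2 value under 4, which held for 39.7% of the 11963 genes.

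Each value is the log2 signal of 1 probe set per gene. The number of arrays, 3 in each group, limits the precision. The median standard error of a difference was 0.077 on the log2 scale, and a gene was called where the adjusted p of limma's test over all 11963 genes was under 0.05. Pargyline raised 1014 genes and lowered 891, which are 8.48% and 7.45% of those tested, or 15.9% in either direction. The same shares are the background over all genes for each list count below, and no list was tested as a set. They understate the background of bright lists. Of the 4886 genes with a DMSO mean below 4 only 1.8% rose and 0.45% fell, and at higher levels more were called. The rises were larger: their median was 0.60 and the highest 4.87, against a median of -0.40 and a lowest of -2.92 among the falls. At least a 2-fold difference was reached by 231 of the risen genes and 42 of the fallen ones, and at least 8-fold by 11 and 0. The 3 pargyline values lay wholly on one side of the 3 DMSO values for 1007 of the 1014 and 880 of the 891, and for 30.8% of all genes.

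The rises and falls also differed in where they lay along the range of expression. Among genes with a DMSO mean between 4 and 8, 17.2% rose and 7.38% fell, whereas among genes at 11 and above 9.08% rose and 16.6% fell. The number of falls depended on single arrays: 501 genes fell without DMSO replicate 1, 479 without DMSO replicate 2 and 549 without pargyline replicate 3. It depended too on the scale. When each array was centred on its own median, 872 genes were higher and 6168 lower, and the median gene moved to -0.15, against -0.02 on the deposited scale. The array median was 5.30 ± 0.02 in pargyline-treated and 5.17 ± 0.03 in DMSO-treated cells (SD, n = 3 each), while the 40th percentile was 2.83 and 2.84 and the mean 6.11 and 6.10. With that centring all 7 leukocyte markers, whose largest difference on the deposited scale was -0.07, were called lower.

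**Figure D1:**
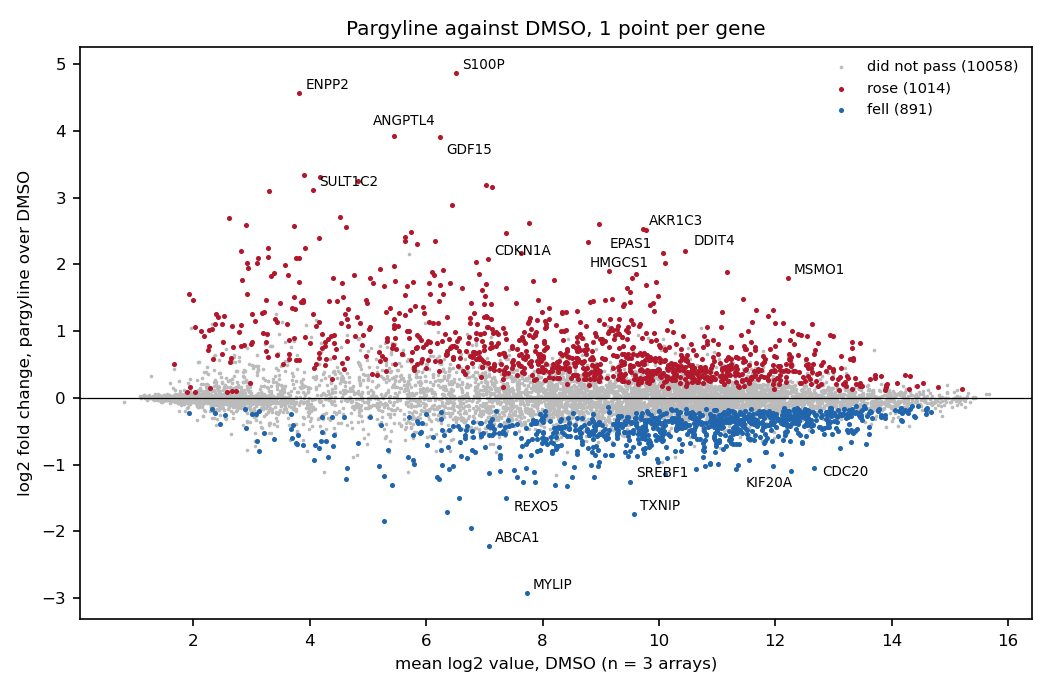
Log2 fold change of pargyline over DMSO (vertical axis) against the mean log2 value in DMSO-treated cells (horizontal axis), 1 point per gene. Red points are the 1014 genes that rose, blue points the 891 that fell and grey points those that did not pass; the largest rises, S100P at 4.87 and ENPP2 at 4.57, exceed the largest fall, MYLIP at -2.92.

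The genes of the drug's known protein targets changed little. KDM1A, which encodes LSD1, gave 10.11, 9.88 and 10.01 in pargyline-treated cells and 10.48, 10.53 and 10.32 in DMSO-treated cells. It fell by 0.44 ± 0.09 (log2, SE; adjusted p = 0.0103, limma), with no overlap between the groups. MAOA was at 7.75, 7.58 and 7.95 with pargyline and at 7.39, 7.18 and 7.46 with DMSO, a difference of 0.42 (adjusted p = 0.0328) that missed the threshold without DMSO replicate 1 (adjusted p = 0.0736), DMSO replicate 2 (0.119), pargyline replicate 1 (0.078) or pargyline replicate 3 (0.108). MAOB stayed dim, at no more than 2.42 on any of the 6 arrays. Of 20 measured genes for LSD1, its partners and the monoamine oxidases, 5 rose and 1 fell; the rises numbered 3 to 6 with any one array left out and moved by over 1.5 times without DMSO replicate 1 or 2 or pargyline replicate 3. PHF21A, which reads unmethylated histone H3 in the LSD1 complex, rose by 0.86 ± 0.17 (adjusted p = 0.00899), and SNAI2, a repressor that recruits that complex, by 0.77 ± 0.11 (adjusted p = 0.00207). RCOR1, the main CoREST scaffold, differed by 0.13 (adjusted p = 0.307).

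Cholesterol is built from acetyl-CoA in a mevalonate arm that ends at lanosterol and a sterol arm that follows it. Both arms are driven by SREBP2, a membrane-bound factor released when sterol in the endoplasmic reticulum is low, and restrained by the INSIG proteins, which hold its escort there. The LXR receptors act when sterol is plentiful and switch on export genes.

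Nearly all measured enzymes of both arms rose with pargyline. In the mevalonate arm 8 of 9 rose and none fell (median 1.15), and in the sterol arm 7 of 8 rose (median 1.53), where 15.9% of all genes changed in either direction and the median gene stood at -0.02. HMGCS1, which makes HMG-CoA, had 11.84, 12.31 and 12.24 in pargyline-treated cells against 10.14, 9.64 and 10.55 in DMSO-treated cells. Every pargyline value was above every DMSO value, and the difference of 2.02 ± 0.29 (adjusted p = 0.00188) is 4.06-fold. A second HMGCS1 probe set gave 2.80. Squalene epoxidase, SQLE, which oxygenates squalene, had 11.61, 11.41 and 11.41 with pargyline and 9.88, 9.45 and 10.01 with DMSO, a rise of 1.70 ± 0.16 (adjusted p = 0.000268). MVK (1.20), IDI1 (1.32), FDPS (0.94) and LSS (1.06), which act between HMG-CoA and lanosterol, also rose.

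Within the sterol arm, TM7SF2, a sterol C14 reductase, had the largest change. It was at 7.16, 7.05 and 7.47 in pargyline-treated cells and at 4.53, 3.39 and 3.76 in DMSO-treated cells, 10.1-fold higher (3.33 ± 0.25, adjusted p = 9.36e-05). LBR, an inner nuclear membrane protein with the same reductase activity, was the single member that fell, by 0.23 (adjusted p = 0.0333), and leaving out any one of 5 of the 6 arrays took that call away. DHCR7, the last reductase of the pathway, had 11.16, 11.04 and 11.08 with pargyline and 9.53, 9.22 and 9.78 with DMSO. Its rise of 1.58 ± 0.19 had an adjusted p of 0.000698. MSMO1 (1.80), SC5D (1.74), HSD17B7 (1.48) and NSDHL (1.46) rose as well, and each of these kept its call whichever array was left out.

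Of 9 measured control genes of the pathway 6 rose and 1 fell. INSIG1 had 13.19, 12.97 and 13.03 in pargyline-treated cells and 11.35, 10.46 and 11.71 in DMSO-treated cells, a rise of 1.89 ± 0.29 (adjusted p = 0.00273), and INSIG2 rose by 1.05 ± 0.11. SREBF2, the gene for SREBP2, rose by 0.67 ± 0.12 (adjusted p = 0.00512). SREBF1, the gene for the related SREBP1, moved the other way: 8.12, 8.15 and 8.49 with pargyline, 9.80, 9.02 and 9.70 with DMSO. It fell by 1.25 ± 0.26 (adjusted p = 0.0109), with all pargyline values below all DMSO values. NPC1, which carries cholesterol out of lysosomes, rose by 0.77 ± 0.11, although its second, dim probe set gave 0.00. MBTPS1, a protease that releases SREBP2, rose by 0.40, and NPC2, a lysosomal partner of NPC1, by 0.41 (adjusted p = 0.0207, lost without DMSO replicate 3 or pargyline replicate 1). SCAP, the SREBP escort, and the protease MBTPS2 did not pass (-0.06 and -0.13).

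SREBF1 is itself known as an LXR target, and the 2 largest falls of the whole comparison were LXR targets too. MYLIP, a ubiquitin ligase that sends the LDL receptor to degradation, was at 4.78, 4.73 and 4.90 in pargyline-treated cells and at 7.88, 7.40 and 7.91 in DMSO-treated cells. It fell by 2.92 ± 0.15 (adjusted p = 1.31e-05), so DMSO-treated cells had 7.59-fold more. ABCA1, the cholesterol exporter, was at 4.31, 4.90 and 5.36 with pargyline and at 7.49, 6.66 and 7.07 with DMSO, and fell by 2.22 ± 0.29 (adjusted p = 0.00125); its second probe set gave -3.05 and another, at background in both groups, -0.04. Of 9 measured genes in the LXR list 3 fell and 1 rose (2 with the replicate number as a block, and 2 without DMSO replicate 3). The one that rose was the apolipoprotein gene APOC1 (0.89 ± 0.15, adjusted p = 0.00372), and the receptor NR1H3 itself, at 0.67, did not pass (adjusted p = 0.0704).

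SREBF2 carried the sterol regulatory element core TCACNCCAC in its own promoter, on the forward strand, and is shown for that reason with the 9 letters in capitals (RefSeq, GRCh38.p14, chr22:41832958-41832994, + strand).
SREBF2: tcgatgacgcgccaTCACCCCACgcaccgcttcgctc
It was the only 1 of the 24 mevalonate, sterol and SREBP control genes with a promoter in the table to hold these letters on either strand in the 250 bases before the start, 4.17%, against 0.816% of 9562 tested genes. The CCAAT box, bound by NF-Y, known to act beside SREBP2, stood in 5 of 7 mevalonate arm promoters and 7 of 8 sterol arm promoters, against 35.6% of all. It was not particular to these arms, although most other lists held it less often. Endoplasmic reticulum folding promoters had it in 20 of 22, histone promoters in 12 of 15 and kinesin, kinetochore and spindle promoters in 25 of 32.

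**Figure D2:**
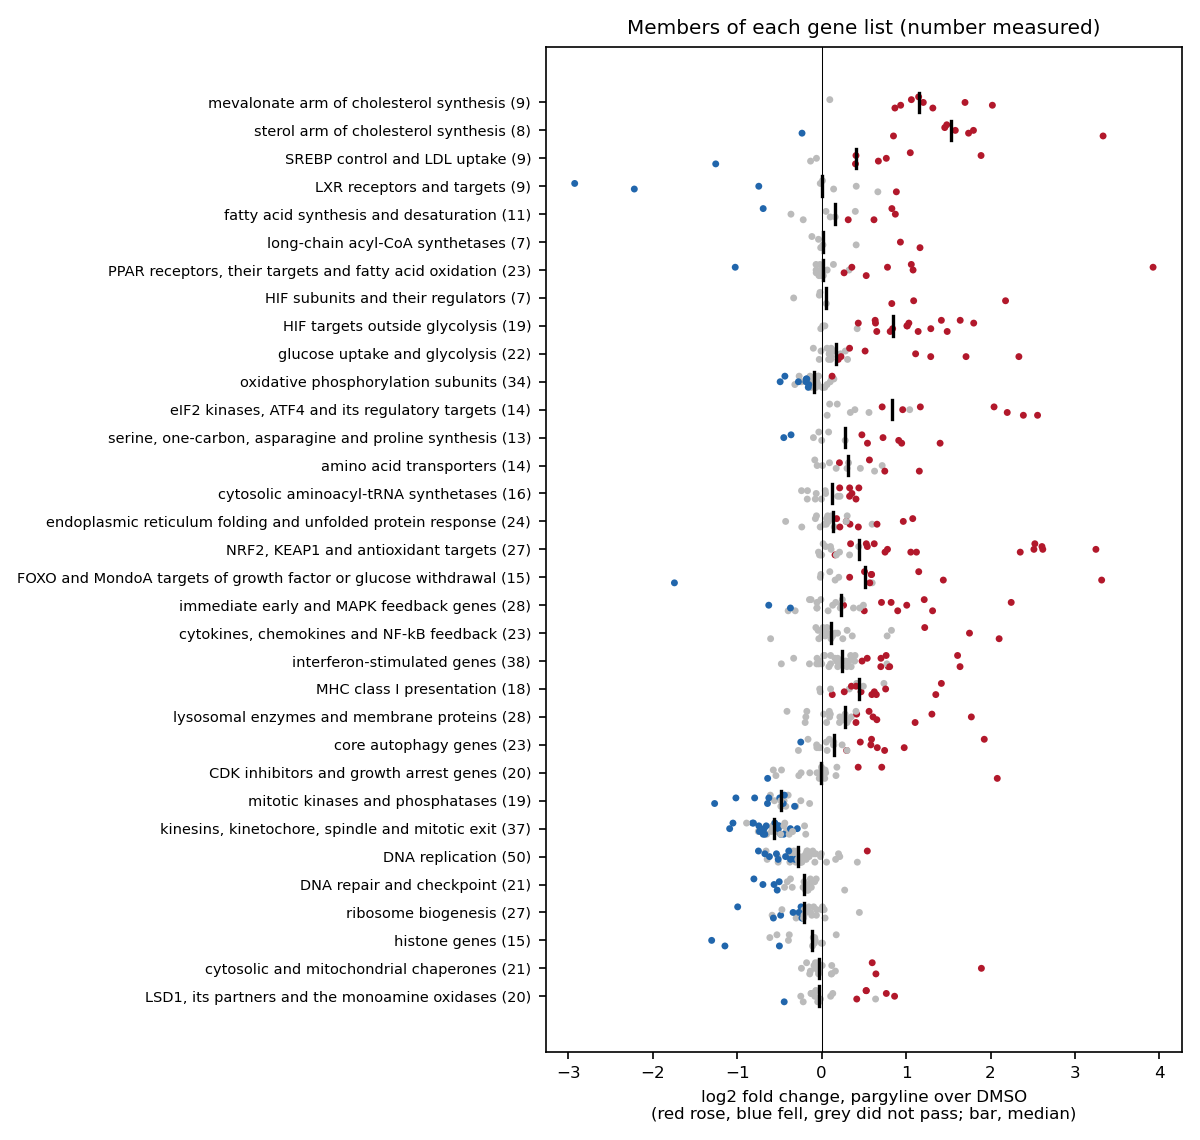
Log2 fold change of pargyline over DMSO (horizontal axis) for every measured member of 33 gene lists (rows, number measured in brackets); red members rose, blue members fell, grey members did not pass, and the black bar is the list's median. The medians run from 1.53 for the sterol arm and 1.15 for the mevalonate arm to -0.48 and -0.56 for the mitotic lists.

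Fatty acid genes changed less uniformly. Of 11 measured synthesis and desaturation genes 4 rose and 1 fell, but the rises numbered 1 to 4 with any one array left out (DMSO replicate 1 or 2 and pargyline replicate 2 or 3 moved them by over 1.5 times), and ME1, the malic enzyme that supplies NADPH, was the one named rise that held throughout (0.62 ± 0.12, adjusted p = 0.00617). SCD, the stearoyl-CoA desaturase, was at 14.17, 14.12 and 14.17 in pargyline-treated cells and at 13.25, 12.92 and 13.79 in DMSO-treated cells, a difference of 0.83 whose adjusted p was 0.0284 and lay between 0.0658 and 0.0932 without any one of 5 of the 6 arrays. ACLY (0.32, adjusted p = 0.0299) also lost its call with the replicate number as a block (adjusted p = 0.0511). This order held for the brightest probe sets only. With every probe set tested on its own, the further ones of SCD rose by 1.27, 1.55 and 1.36 and those of ACLY by 0.75 and 0.59, and all passed. The second bright ME1 probe set, at 0.40, did not pass (adjusted p = 0.162, limma). Fatty acid synthase, FASN, differed by 0.05 (adjusted p = 0.945).

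Genes for handling fatty acids included one of the largest rises. ANGPTL4, a secreted inhibitor of lipoprotein lipase, was at 9.63, 9.16 and 9.33 with pargyline and at 5.84, 5.79 and 4.72 with DMSO, 15.2-fold higher (3.92 ± 0.28, adjusted p = 7.35e-05). Of 23 measured PPAR receptor, target and fatty acid oxidation genes 7 rose and 1 fell (8 with median centring). PLIN2, which coats lipid droplets, rose by 1.06 ± 0.13, CPT1A, which admits fatty acids to mitochondria, by 0.53 ± 0.09, and ECH1, of peroxisomal and mitochondrial oxidation, by 1.08 ± 0.13. UCP2, an inner mitochondrial membrane carrier, fell by 1.02 ± 0.09 (adjusted p = 0.000171). The acyl-CoA synthetases ACSL1 (1.17) and ACSL5 (0.93) rose, with the other 5 measured not passing, and the receptors PPARA, PPARD and PPARG did not pass (0.02, -0.04 and 0.33).

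In hypoxia the HIF alpha subunits escape hydroxylation by the EGLN enzymes and switch on genes for glycolysis, vessel growth and matrix. Ambient oxygen is not described in the labels. Of 19 measured HIF targets outside glycolysis 15 rose and none fell (median 0.84), and 13 to 15 rose with any one array left out. EPAS1, which encodes HIF-2 alpha, was at 12.30, 12.16 and 12.30 in pargyline-treated cells and at 10.03, 10.17 and 10.04 in DMSO-treated cells. The 2 groups lay far apart relative to their spread, and the rise of 2.18 ± 0.07 (4.53-fold) had an adjusted p of 4.16e-07; a second, dim probe set gave 0.50 and did not pass. HIF1A, for HIF-1 alpha, differed by 0.06 (adjusted p = 0.754), which says nothing of its protein.

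Among the targets, NDRG1, a stress-induced cytoplasmic protein, was at 11.39, 11.13 and 11.51 with pargyline and at 9.22, 9.37 and 10.03 with DMSO, a rise of 1.80 ± 0.20 (adjusted p = 0.000571). LOX, which cross-links collagen, rose by 1.64 ± 0.20, MXI1, a MYC antagonist, by 1.42 ± 0.14, P4HA1, a collagen prolyl hydroxylase, by 1.29 ± 0.10, and the mitophagy receptor BNIP3L by 1.14 ± 0.17. VEGFA, the vascular growth factor, rose by 0.81 (adjusted p = 0.0188), with adjusted p up to 0.0714 when one array was left out. In glycolysis 8 of 22 rose and none fell, mostly not the abundant core enzymes: ALDOC, a minor aldolase, was at 11.36, 10.77 and 11.25 with pargyline and at 8.61, 8.48 and 9.27 with DMSO (2.34 ± 0.21). PDK1, which switches pyruvate away from mitochondria, rose by 1.71, the glucose transporter SLC2A3 by 1.29 and ENO2 by 1.11, whereas SLC2A1 and LDHA, at 0.11 each, did not pass. Among the abundant core enzymes PGK1, at 14.65 with pargyline and 14.32 with DMSO, did rise, by 0.33. It kept its call whichever array was left out. Of 34 subunits of oxidative phosphorylation 8 fell and 1 rose, the falls being at most 0.49 in size and numbering 2 to 8 with any one array left out (DMSO replicate 1 or 2 and pargyline replicate 2 or 3 moved them by over 1.5 times) and 21 with median centring. These subunits were bright, and 16.6% of all genes with a DMSO mean of 11 and above fell.

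The letters ACGTG, the core of the hypoxia response element, stood on either strand in the 250 bases before the start of 16 of 37 HIF target and glycolysis genes with a promoter (43.2%), against 21.7% of all tested genes, 23.4% of the genes that rose and 30.4% of those that fell. The letters were not particular to these lists, although most other lists held them less often. Lysosomal promoters had them in 12 of 20 and ribosome biogenesis promoters in 10 of 23. They overlap the E-box CACGTG, which other factors bind. Among the list's genes that passed, 11 of 19 held them, and among those that did not, 5 of 18. The windows of P4HA1, ENO2 and LOX are shown as examples, and all 3 rose and kept their call whichever array was left out. ALDOC and BHLHE40 did so too and held the letters, in part within CACGTG, but are not shown. LOX sites at 185 and 42 bases before the start are also left out. Capitals mark ACGTG or its reverse complement, in the direction of the gene (RefSeq, GRCh38.p14, P4HA1 chr10:73096934-73096966, - strand, ENO2 chr12:6914448-6914480, + strand, LOX chr5:122078357-122078389 and chr5:122078339-122078371, - strand).
P4HA1: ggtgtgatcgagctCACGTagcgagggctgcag
ENO2: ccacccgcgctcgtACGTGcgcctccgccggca
LOX, 116 bases before the start: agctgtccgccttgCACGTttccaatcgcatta
LOX, 98 bases before the start: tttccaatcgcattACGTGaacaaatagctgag

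**Figure D3:**
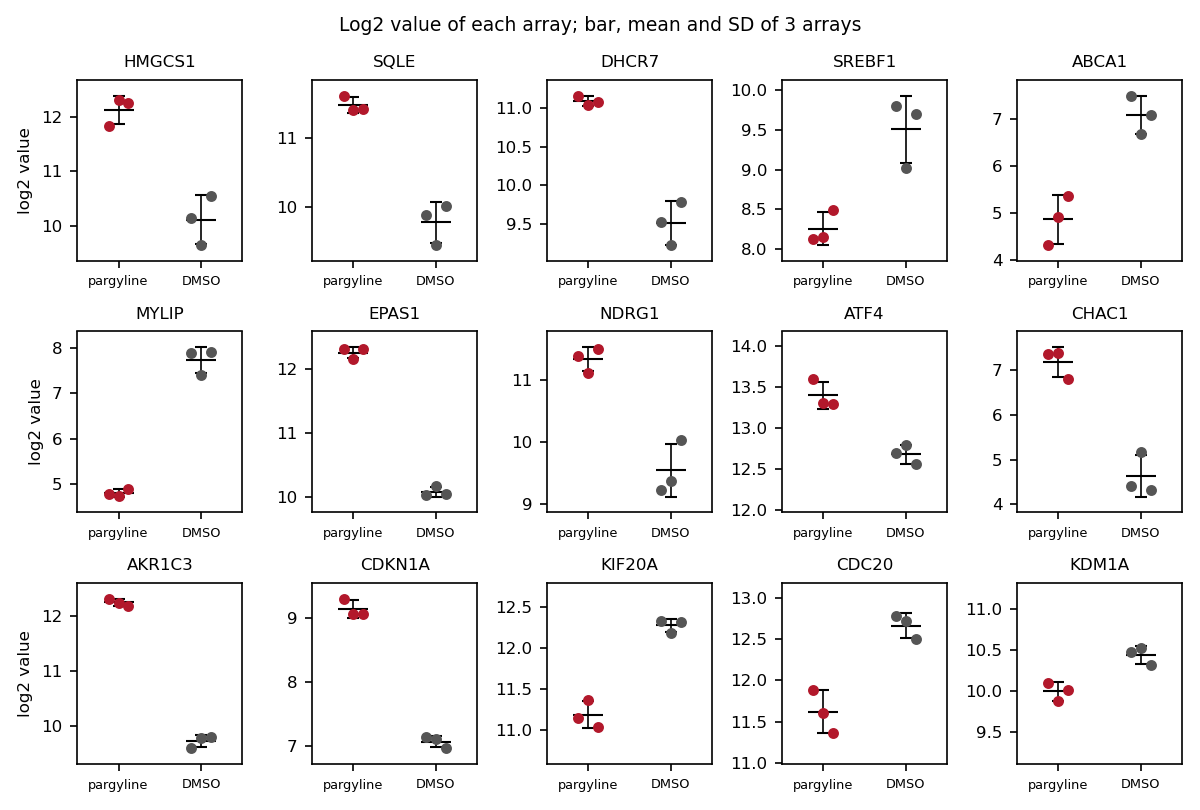
Log2 value (vertical axis, its own range in each panel) of 15 genes on each of the 3 pargyline arrays (red, left) and the 3 DMSO arrays (grey, right); the bar and whiskers are the mean and SD of 3 arrays. In every panel the 2 groups are apart, with SREBF1, ABCA1, MYLIP, KIF20A, CDC20 and KDM1A lower and the other 9 genes higher in pargyline-treated cells.

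The integrated stress response begins with kinases that phosphorylate eIF2, after which ATF4 is translated and turns on genes for amino acid supply. Of 14 measured regulators and regulatory targets 7 rose and none fell (median 0.84). ATF4 itself had 13.59, 13.31 and 13.30 in pargyline-treated cells and 12.69, 12.79 and 12.56 in DMSO-treated cells, a rise of 0.72 ± 0.13 (adjusted p = 0.00602). CHAC1, which degrades glutathione, had 7.36, 7.40 and 6.80 with pargyline and 4.41, 5.16 and 4.31 with DMSO, 5.88-fold higher (2.56 ± 0.50, adjusted p = 0.00821). DDIT4, an inhibitor of mTORC1, had 12.91, 12.43 and 12.61 with pargyline and 10.56, 10.29 and 10.51 with DMSO, and rose by 2.20 ± 0.14 (adjusted p = 4.39e-05). VLDLR (2.04) and CEBPB (0.96) rose too. DDIT3, for the death-associated factor CHOP, differed by 0.18 ± 0.33 (adjusted p = 0.785), its groups overlapping.

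Amino acid genes changed in part. Of 13 for serine, one-carbon, asparagine and proline synthesis 6 rose and 2 fell (1 fell without any one array other than DMSO replicate 3): CTH, of cysteine synthesis, had 10.84, 10.90 and 10.69 in pargyline-treated cells and 9.48, 9.61 and 9.14 in DMSO-treated cells (1.40 ± 0.12, adjusted p = 0.000162). PHGDH, the entry to serine synthesis, rose by 0.91 ± 0.09, and SHMT2, of mitochondrial one-carbon metabolism, by 0.54 ± 0.04. ASNS, asparagine synthetase, rose by 0.95 (adjusted p = 0.0182), with adjusted p up to 0.0612 when one array was left out. Of 14 amino acid transporters 4 rose (2 without pargyline replicate 1), SLC1A4 the most (1.16 ± 0.13), and of 16 cytosolic aminoacyl-tRNA synthetases 6 rose, none by more than 0.44. In the endoplasmic reticulum list 8 of 24 rose: DNAJB9 (1.08), XBP1 (0.97) and EDEM1 (0.66), of the branch that IRE1 controls and of degradation, were among them, while the chaperone HSPA5 did not pass (0.15, adjusted p = 0.407).

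The core of the C/EBP-ATF response element, TGATGNAA, stood in 7 of 48 of these amino acid and stress promoters (14.6%), in 4 of the 22 whose genes passed and 3 of the 26 whose genes did not, against 1.98% of all tested genes and 1.90% of those that rose. CHAC1 and ASNS, which rose, are shown as examples. Capitals mark the element, reversed in CHAC1 (RefSeq, GRCh38.p14, CHAC1 chr15:40953248-40953283, + strand, ASNS chr7:97872455-97872490, - strand).
CHAC1: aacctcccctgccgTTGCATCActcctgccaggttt
ASNS: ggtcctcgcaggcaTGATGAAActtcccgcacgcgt

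NRF2 (NFE2L2) is freed from its inhibitor KEAP1 by electrophiles and oxidants and induces enzymes that conjugate, reduce and export them. Of 27 measured genes in this list 15 rose and none fell (median 0.44). The aldo-keto reductases, which reduce ketones and aldehydes including steroids, rose strongly: AKR1C3 had 12.31, 12.23 and 12.19 in pargyline-treated cells and 9.60, 9.78 and 9.79 in DMSO-treated cells, a rise of 2.52 ± 0.09 (adjusted p = 6.23e-07). AKR1C1 (2.51) and AKR1C2 (2.61) rose by as much, but these family members are close in sequence and their probe sets may share signal. ABCC3, an exporter of conjugates, had 7.94, 8.07 and 8.21 with pargyline and 4.19, 5.67 and 4.62 with DMSO (3.25 ± 0.36, adjusted p = 0.000496). Heme oxygenase, HMOX1, averaged 10.38 ± 0.33 with pargyline and 7.76 ± 0.77 with DMSO (SD, n = 3 each), and rose by 2.62 ± 0.35 (adjusted p = 0.00132). NQO1, among the most used NRF2 reporters, was already at 14.03 in DMSO-treated cells and differed by 0.10 (adjusted p = 0.649). NFE2L2 (-0.01) and KEAP1 (-0.04) did not pass.

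TXNIP, which binds thioredoxin and limits glucose uptake, is induced by the glucose sensor MondoA. It had 7.68, 7.95 and 7.86 in pargyline-treated cells and 9.80, 9.62 and 9.30 in DMSO-treated cells, and fell by 1.74 ± 0.19 (adjusted p = 0.000446); both further probe sets gave falls, -1.71 and -1.99. It was the one fall in a list of 15 FOXO and MondoA targets in which 8 rose. KLHL24, a ubiquitin ligase adaptor, rose by 3.32 ± 0.32 and a second probe set gave 2.96, but the remaining one, at a similar level, gave 0.06. CCNG2 (1.44) and YPEL5 (1.15) rose as well.

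S100P, a calcium-binding ligand of the receptor RAGE, was at 11.80, 10.91 and 11.40 with pargyline and at 6.21, 7.35 and 5.96 with DMSO, the largest change of the comparison (29.2-fold, 4.87 ± 0.47, adjusted p = 0.000282). GDF15, a stress hormone of the TGF-beta family, was at 10.37, 10.13 and 9.93 with pargyline and at 6.51, 7.46 and 4.73 with DMSO (3.91 ± 0.56, adjusted p = 0.00181); the DMSO arrays spread widely and a second probe set was at background in both groups. STC1, a secreted glycoprotein, rose by 3.19 ± 0.42 and ENPP2, which makes lysophosphatidic acid, by 4.57 ± 0.27.

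Feedback phosphatases of MAP kinase rose within an immediate early list of 28 in which 9 rose and 2 fell (1 fell without DMSO replicate 1, DMSO replicate 3 or pargyline replicate 2): DUSP1 by 1.31, DUSP10 by 1.22 and DUSP6 by 0.82. FOSL1, a partner of JUN, fell by 0.63 ± 0.10 (adjusted p = 0.00384), MYC did not pass (0.24), and FOS stayed at no more than 2.74 on all 6 arrays. Of 18 genes of MHC class I presentation 11 rose and none fell, 8 to 12 with any one array left out; HLA-B (0.65), the peptide transporter TAP1 (0.62) and the NKG2D ligands MICA (0.59) and ULBP2 (0.76) were among them. HLA genes are alike in sequence, so their probe sets may share signal. Of 38 interferon-stimulated genes 9 rose, GBP2 by 1.64 ± 0.22 and ISG20 by 1.61 ± 0.24, but the count was 5 without DMSO replicate 3. Cytokines and NF-kB feedback genes gave 3 rises of 23, with IL11 (1.22) and CSF1 (1.75) named; the other 3 CSF1 probe sets were at background.

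Lysosomal and autophagy genes rose in part. Of 28 lysosomal genes 10 rose and none fell (1 fell without pargyline replicate 3); the protease CTSD was at 9.97, 9.82 and 9.91 in pargyline-treated cells and at 8.68, 8.65 and 8.46 in DMSO-treated cells (1.31 ± 0.10, adjusted p = 9.36e-05), and the sialidase NEU1 rose by 1.77. Of 23 core autophagy genes 8 rose and 1 fell, with 5 rises as the lowest count when an array was left out (DMSO replicate 1 or pargyline replicate 3 took it down by over 1.5 times). GABARAPL1, an ATG8 protein of the autophagosome, averaged 7.14 ± 0.13 with pargyline and 5.21 ± 0.11 with DMSO (SD, n = 3 each), a rise of 1.93 ± 0.09 (adjusted p = 8.14e-06), and MAP1LC3B rose by 0.58.

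Genes of cell division fell. None of 19 mitotic kinases, phosphatases and cyclins and none of 37 kinesin, kinetochore and spindle genes rose. In these lists 9 and 20 fell, with medians of -0.48 and -0.56, where 7.45% of all genes fell. Among genes with a DMSO mean of 11 and above, 16.6% fell. All 19 of the first and 34 of the 37 of the second had pargyline values wholly below the DMSO values. Among all genes 30.8% did not overlap, in either direction. The calls were sensitive, however: with any one array left out 4 to 7 and 7 to 12 fell. The second count moved by over 1.5 times whichever array was left out, the first without any DMSO replicate or pargyline replicate 3. When each array was centred on its median 17 and 34 fell. Fewer dividing cells and less of these RNAs per cell cannot be told apart in such bulk samples. CDC20, which activates the anaphase ubiquitin ligase, was at 11.88, 11.61 and 11.36 in pargyline-treated cells and at 12.78, 12.72 and 12.50 in DMSO-treated cells, and fell by 1.05 ± 0.17 (adjusted p = 0.00355). The mitotic kinesin KIF20A was at 11.15, 11.37 and 11.04 with pargyline and at 12.33, 12.19 and 12.32 with DMSO, and fell by 1.09 ± 0.23 (adjusted p = 0.0118). CCNF (-1.01), PLK1 (-1.27) and BUB1B (-0.64) fell too, while CDK1 at -0.31 did not pass (adjusted p = 0.353).

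The CDK inhibitor CDKN1A (p21) was at 9.31, 9.06 and 9.07 with pargyline and at 7.13, 7.10 and 6.96 with DMSO, 4.23-fold higher (2.08 ± 0.25, adjusted p = 0.000736). CDKN1B, for p27, differed by -0.01. Of 50 replication genes 10 fell and 1 rose (35 fell with median centring, and 6 to 12 falls with any one array left out, the low counts without DMSO replicate 1 or 2 or pargyline replicate 3): the polymerase subunits POLE (-0.75) and POLA1 (-0.62) fell, and FOXM1 and MCM2, at -0.48 and -0.52, passed with the replicate number as a block (adjusted p = 0.0378 and 0.0348) and missed the threshold without it (0.0515 and 0.0562). In repair 5 of 21 fell, FANCG by 0.80 ± 0.13, and in ribosome biogenesis 8 of 27 (12 and 21 with median centring), with NPM3 at -0.99 ± 0.06 (adjusted p = 2.61e-05). For comparison, 11.9% of all genes with a DMSO mean of 8 to 11 fell, and 16.6% of those at 11 and above.

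The letters TTTGAA, known as the cell cycle gene homology region, stood in 20 of 46 mitotic promoters (43.5%), against 9.73% of all tested genes and 12.4% of those that fell; they stood in 9 of 23 whose genes passed and 11 of 23 whose genes did not. PLK1, CDC20 and CCNF, which fell, are shown as examples. A further CDC20 site, reversed and at 178 bases before the start, is left out. Capitals mark the letters (RefSeq, GRCh38.p14, + strand, PLK1 chr16:23678846-23678879, CDC20 chr1:43358902-43358935, CCNF chr16:2429348-2429381).
PLK1: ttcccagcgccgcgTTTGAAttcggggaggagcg
CDC20: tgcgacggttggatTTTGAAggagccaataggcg
CCNF: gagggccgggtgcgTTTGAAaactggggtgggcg

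The same drug was also added to cells that had SAHA, and that difference uses none of the 6 pargyline and DMSO arrays, although all 12 arrays shared 1 estimate of the spread and the choice of probe sets. There 943 genes rose (7.88%) and 1042 fell (8.71%), or 607 and 632 without replicate 2 of the cells given both drugs. Of the 1014 genes that rose with pargyline alone, 386 also rose on top of SAHA, which is 38.1% of the first list and 40.9% of the second, and 18 fell; of the 891 that fell, 414 fell again (46.5% and 39.7%) and 12 rose. Across genes the 2 effects correlated at r = 0.50 and rho = 0.47 (n = 11963 genes, which share each array's processing). A set of genes called in one comparison has larger changes there because of that choice. The genes that rose without SAHA had a median of 0.26 with SAHA and 0.60 without it, and those that rose with SAHA 0.51 with SAHA and 0.26 without it. The fallen genes gave -0.24 and -0.40 when chosen without SAHA, and -0.46 and -0.24 when chosen with it.

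**Figure D4:**
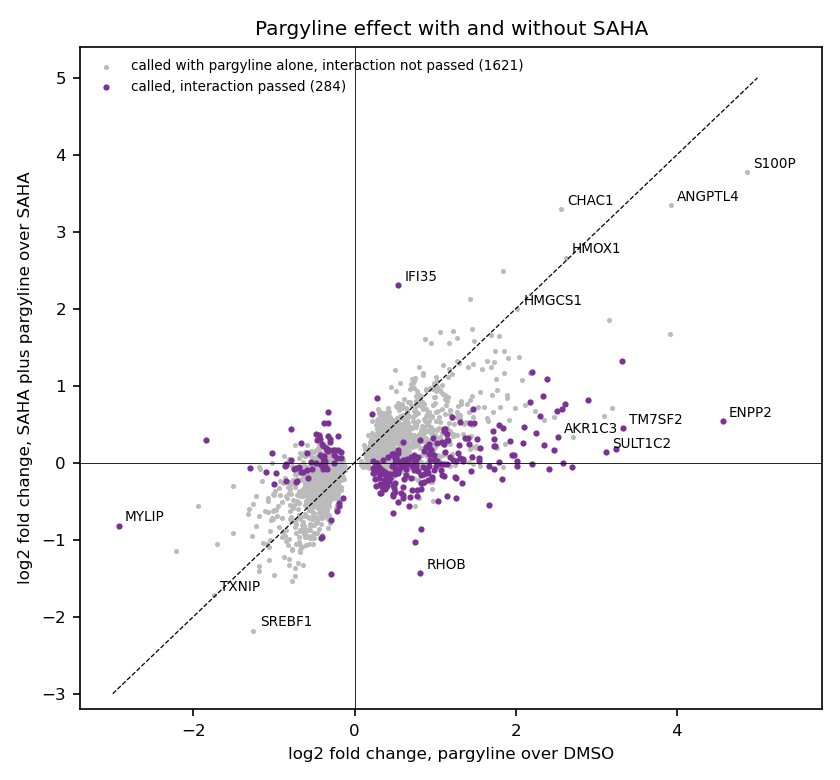
Log2 fold change of SAHA plus pargyline over SAHA (vertical axis) against that of pargyline over DMSO (horizontal axis) for the 1905 genes called with pargyline alone; purple marks the 284 that passed the interaction test, grey the other 1621, and the dashed line is equality. ENPP2 lies at 0.54 against 4.57; the genes were chosen by the horizontal value, which draws points away from the line.

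The interaction, the pargyline effect with SAHA minus that without it, passed in 445 genes (3.72%), and in 670 with the replicate number as a block; it passed in 251 without DMSO replicate 1, 245 without DMSO replicate 2, 261 without SAHA replicate 2 and 246 without replicate 2 of the cells given both drugs. Over all genes it passed above 0 in 1.28% and below 0 in 2.44%. It contains the pargyline minus DMSO difference, so genes chosen for a rise or fall over DMSO tend towards the opposite sign in it: it passed in 212 of the 1014 risen genes and in 72 of the 891 fallen ones, and their signs are not read as a result. It passed in 1 of 9 mevalonate arm and 2 of 8 sterol arm genes. HMGCS1 rose by 2.00 with SAHA and 2.02 without it, SQLE by 1.66 and 1.70, and HMOX1 by 2.67 and 2.62. TXNIP fell by 1.72 with SAHA and 1.74 without it. Other large rises with pargyline alone were small on top of SAHA. SULT1C2, a sulfotransferase, differed by 0.14 with SAHA and 3.12 without it (interaction adjusted p = 3.46e-06), AKR1C3 by 0.33 and 2.52 (adjusted p = 8.21e-05) and TM7SF2 by 0.45 and 3.33 (adjusted p = 0.0048). TM7SF2 averaged 8.96 with both drugs, 8.50 with SAHA, 7.23 with pargyline and 3.89 with DMSO, and AKR1C3 12.38, 12.04, 12.24 and 9.72 in the same order, so SAHA-treated cells were already far above DMSO-treated ones; SULT1C2, at 3.70, 3.56, 7.17 and 4.06, was high with pargyline alone. FASN and DDIT3 passed in the opposite sense, rising by 2.09 and 2.25 with SAHA (interaction adjusted p = 0.0405 and 0.0426) where neither passed without it.

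**Figure D5:**
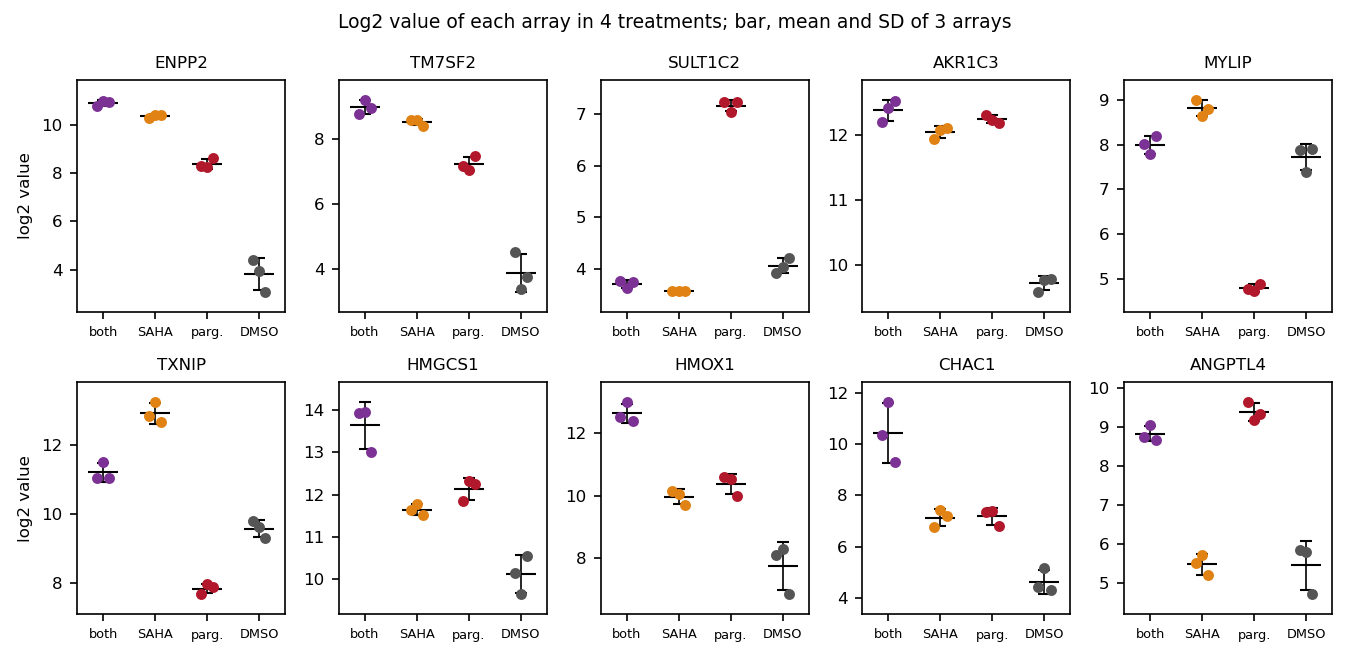
Log2 value (vertical axis, its own range in each panel) of 10 genes on each array of cells given both drugs, SAHA, pargyline (parg.) or DMSO, from left to right; the bar and whiskers are the mean and SD of 3 arrays. HMGCS1, HMOX1 and CHAC1 are highest with both drugs, SULT1C2 is high with pargyline alone, and MYLIP and TXNIP are lowest with pargyline alone.

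Set directly against SAHA, pargyline gave 2718 genes higher and 2803 lower, 46.2% of those tested. That comparison shares its pargyline arrays with the one above. Of the 20 largest rises over DMSO, 9 were also higher in pargyline-treated than in SAHA-treated cells and 5 were lower; of the 20 largest falls, 6 were higher and 9 lower.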

How the data were processed

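Total RNA of MDA-MB-231 cells was measured on 12 one-colour Affymetrix human expression arrays, 3 for each of 4 treatments. The deposited values are on a log2 scale, per the labels; the submitters' processing notes name RMA, whose version, background and summary settings are not given in the sources used here. The log2 values deposited by the authors ran from 0.47 to 15.87 and were used without further normalization. Of 22277 probe sets, 62 were controls, 19064 were listed for 1 gene in the platform annotation, 1043 for several and 2108 for none; the last 2 kinds were tested (60 higher and 55 lower, 51 and 32) but not named. Where a gene had several probe sets (4310 of 11963 genes), the one brightest on average across all 12 arrays stood for it.

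Group means were fitted to all 12 arrays with limma 3.58.1 in R 4.3.3 (8 residual and 1.32 prior degrees of freedom), with Benjamini-Hochberg adjustment over all genes and a threshold of 0.05. Named genes were the 20 largest rises and the 20 largest falls whose groups did not overlap and whose higher mean was above 7.06, up to 6 called members of each list above that level, members fixed as always shown, and the 8 largest interactions each way. The members and the 43 gene lists were chosen with earlier results of these data known. Same-numbered pargyline and DMSO arrays deviated together from their group means (r = 0.268, 0.122 and 0.254 over genes). Same-numbered arrays of SAHA plus pargyline and of SAHA did so too (r = 0.397, 0.257 and 0.535). The labels give a number but no shared day. The main fit therefore did not pair samples by that number, and a block on it was an alternative (1207 rises and 1121 falls). Promoters (250 bases before the start, both strands) came from RefSeq for 9562 tested genes. On simulated data of the same size, 66% of genes changed by 0.5 and 89% changed by 1 on the log2 scale were recovered, with 8 false calls. Only 100 genes were changed at each size and the noise was independent between arrays. These rates need not hold for the measured arrays, where far more genes were called and same-numbered arrays deviated together. Alternatives were other normalizations, level filters, probe set rules, a block, weights, prior and sample choices, thresholds, and each array left out. Centring on the 75th percentile or the mean was added after seeing the data. Correlation between replicates of a group was 0.9976 to 0.9992, array quality measures (RNA ends, added RNA, percentiles) gave no adjusted exact p below 0.36, and 3 arrays against 3 cannot give an exact p below 0.1.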

Additional observations from a re-analysis of the deposited data

Results flagged for a closer look

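The 21 genes below passed the interaction test of the pargyline effect with SAHA against that without it (limma, adjusted over all genes). All 21 were among the largest rises or falls over DMSO or were named for a large interaction. Other named genes passed it too and are not listed here, such as ALDOC (interaction adjusted p = 0.0281) and CTH (0.012). Some of the 21 were chosen by this test, so their number cannot be set against the 3.72% of all genes that passed. The values below are the effect on top of SAHA minus the effect over DMSO, on the log2 scale. Many of the 21 genes were named for a large change over DMSO, a choice that draws the value towards the opposite sign. Groups of 3 arrays were too small to test for single outlying samples.

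Large rises over DMSO that were smaller on top of SAHA gave negative differences. These were -4.03 for ENPP2, -3.07 for the exporter ABCC3, -2.98 for SULT1C2, -2.88 for TM7SF2, -2.49 for the clock repressor BHLHE41, -2.31 for TMEM45A, -2.08 for CSGALNACT1 and -1.99 for KLHL24. The aldo-keto reductases gave -2.19 for AKR1C3, -1.85 for AKR1C2 and -1.85 for AKR1C1. BHLHE41 differed by 2.41 without SAHA and -0.08 with it.

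Some genes moved in opposite directions in the 2 settings. RHOB, a small GTPase, gave -2.25, being 0.81 higher without SAHA and 1.44 lower with it, and ORAI3, a calcium channel subunit, gave -2.22. KHDRBS3 gave 0.99, from -0.33 without SAHA and 0.65 with it; its call over DMSO was lost without any one of 5 of the 6 arrays. BTN2A1 gave 0.85, THADA 0.92 and STEAP3 0.84, each lower with pargyline alone and higher on top of SAHA.

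The fall of MYLIP was smaller with SAHA, a difference of 2.11, and so were those of GNB1L (0.98) and EPB41L2 (0.84). IFI35 gave 1.77, rising by 2.31 with SAHA and 0.54 without it. The call of IFI35 over DMSO was lost in 4 of the 6 fits that left out 1 array, with adjusted p from 0.0642 to 0.084.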

How the results depend on the processing

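None of the 212 named genes that passed reversed under any alternative: 162 passed in every alternative they were part of and 165 whichever array was left out. Named genes that did not pass could change sign, as FASN did, from -0.15 to 0.39. Over pargyline against DMSO, adjusted p under 0.01 left 592 rises and 355 falls, and a 2-fold minimum 231 and 42. Array weights gave 1466 falls, and median centring 6168 falls; quantile normalization gave 922 rises and 986 falls, and centring on the mean or the 75th percentile, added after seeing the data, 942 and 994 or 945 and 1112. Leaving out one array gave 733 to 926 rises and 479 to 859 falls. On top of SAHA, using only those 6 arrays gave 616 rises and 614 falls, adjusted p under 0.01 gave 452 and 499, a 2-fold minimum 131 and 98, and one array left out 607 to 926 and 632 to 1069. Pargyline against SAHA gave 1060 higher and 1009 lower at 2-fold, and 2529 to 2610 and 2518 to 2804 with one array left out. The interaction count was 670 with the replicate block, 1079 with array weights, 92 at adjusted p under 0.01, 143 at 2-fold and 245 to 656 with one array left out. The cause of these changes was not tested. With the replicate number as a block pargyline against DMSO gave 1207 rises and 1121 falls; ACLY (adjusted p = 0.0511), CLDN4 (0.0501), SLC7A1 (0.0658) and TAF9B (0.0663) lost their call, FOXM1 and MCM2 gained one, and no other named gene's call changed. About 40% of genes were dim, and for these signal over background limits what could be seen.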

Other observations

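Of 15 epithelial genes 2 rose and 1 fell, and of 15 luminal genes 3 rose, shares near the 15.9% of all genes called. EPCAM, an epithelial adhesion protein, was at 7.10, 7.20 and 7.01 in pargyline-treated cells and at 8.38, 8.29 and 8.59 in DMSO-treated cells, and fell by 1.32 ± 0.22 (adjusted p = 0.0035, limma). AGR2, a secretory pathway disulphide isomerase, rose by 1.86 ± 0.35 (adjusted p = 0.00701) and the keratin KRT19 by 0.98 ± 0.14 (adjusted p = 0.00154). The 2 epithelial rises, JUP (1.21) and CLDN4 (0.62), did not hold with each array left out. Of 15 mesenchymal genes 1 rose, TGFBI (0.58), a call lost whichever array was left out (adjusted p from 0.0602 to 0.0907), and of 8 fibroblast and 7 leukocyte genes none passed.

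The clock list of 12 gave 2 rises (1 without DMSO replicate 1 or pargyline replicate 1) and 2 falls: PER2 fell by 1.30 ± 0.14 (adjusted p = 0.000499; a second, dim probe set gave -0.07) and CRY1 by 0.93 ± 0.14 (adjusted p = 0.00214), both being repressors of CLOCK and BMAL1. HSPB8, a small chaperone of selective autophagy, rose by 1.89 ± 0.25 (adjusted p = 0.00122) in a chaperone list where 3 of 21 rose. The linker histone H1-2 fell by 1.15 ± 0.22 (adjusted p = 0.00812), 1 of 3 falls among 15 histone genes. The 9 measured genes of the metallothionein and zinc response list did not pass and lay between -0.13 and 0.19. Of 17 BCL2 family and death genes 1 rose (2 without DMSO replicate 2), the death receptor TNFRSF10B (0.43 ± 0.05, adjusted p = 0.000588). Of 20 growth arrest genes 3 rose and 1 fell (2 fell without DMSO replicate 3, pargyline replicate 1 or pargyline replicate 2), of 12 KLF factors 4 rose (2 without DMSO replicate 1), and of 11 AHR and xenobiotic genes 2 rose (1 without DMSO replicate 2 or pargyline replicate 2) and 1 fell. Of all genes 8.48% rose and 7.45% fell, and none of these small lists was tested against those shares.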
